A study of Mus musculus with 6 samples.

Results

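The genes described here are the cyclins that carry a cell through the G1 phase, the kinases they activate and 1 phosphatase. The 9 genes, Ccnd1, Ccnd2, Ccnd3, Ccne1, Ccne2, Cdk4, Cdk6, Cdk2 and Cdc25a, were taken by name from a table of 56748 genes. All 9 had a mean of at least 1 FPKM (fragments per kilobase, a level per gene length and library size), the minimum for testing, as did 12678 genes in all. RNA was sequenced from whole mouse hearts at postnatal day 1, in 3 libraries labelled Flox with the genotype FF, the controls, and 3 from a cardiac knockout of Kdm5b, here cKO. The product of Kdm5b removes methyl groups from histone H3. The sources used here do not give the driver of the deletion or whether each library is a separate animal, so p-values measure only the spread between these libraries.

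D-type cyclins (Ccnd1 to Ccnd3) are induced by growth signals and activate the kinases CDK4 and CDK6, which phosphorylate the retinoblastoma protein and so release E2F transcription factors. E2F factors switch on E-type cyclins (Ccne1, Ccne2) and CDC25A. E-type cyclins bind CDK2, and CDC25A removes inhibitory phosphates from that kinase, which opens S phase. Heart muscle cells divide in the fetus and largely leave the cell cycle in the days after birth, and the D-type cyclins are among the genes known to hold them in it.

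Libraries held 15658893 to 20339926 reads, recovered from the FPKM values, and the 9 genes had between 55 and 4775 reads each per library. Kdm5b itself was read at 3.19, 3.25 and 3.92 FPKM in FF and at 2.80, 3.03 and 2.75 FPKM in cKO hearts (log2 difference -0.20, limma adjusted p = 0.447, and -0.13 without FF replicate 3, limma adjusted p = 0.391), over the whole gene and all cell types. FF replicate 3 stood apart: its 14 thymocyte markers had a summed level of 289 FPKM, no other library exceeding 20.3 FPKM. Of the 14, 13 were highest in FF replicate 3. The exception, Cd1d1, was lowest there, at 9.88 FPKM against 13.5 to 18.9 FPKM elsewhere, and made up most of the sum in each other library. Rag2, a recombinase gene of developing lymphocytes, was listed at 0 in the other 5. Summed macrophage, fibroblast, endothelial, erythroid and epicardial markers were also highest in that library, while cardiomyocyte markers summed to 12204 FPKM there against 10659 to 13942 elsewhere, and heart muscle transcripts were abundant throughout. The result of each of the 9 genes is therefore given with and without FF replicate 3. Mitochondrial genes took 18.95%, 17.98% and 18.97% of reads in FF and 15.7%, 13.5% and 12.8% in cKO libraries. That share was lower in each cKO library, and its cause was not tested. With FPKM rescaled outside mitochondrial and haemoglobin genes, the log2 difference was -0.68 for Ccnd1 (main fit -0.67) and -0.97 for Ccne1 (main fit -0.96). For Ccnd2 it was 0.14 (main fit 0.15). In whole hearts, fewer cells of a type and less RNA per cell cannot be told apart.

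Transcripts of 6 of the 9 genes were lower in every cKO heart than in every FF heart: Ccnd1, Ccne1, Cdk4, Cdk6, Cdk2 and Cdc25a. Among all genes tested 14.5% were separated in that direction and 13.5% in the other, in which none of the 9 was. With all 6 libraries 0 of the 9 passed the threshold of an adjusted p of 0.05 in limma, where 0.0947% of all genes were lower and 0.071% higher. At an unadjusted limma p under 0.05 the same 6 genes were lower and 0 higher, against 9.55% and 8.39% of all genes. Limma voom on the recovered reads also called 0 of the 9, where it called 5 lower and 6 higher of all genes. Without FF replicate 3, Ccnd1, Ccne1, Ccne2 and Cdk6 fell in cKO hearts in limma, 4 of 9 where 6.26% of all genes were lower, and 0 of 9 rose where 5.73% were higher. Among these 5 libraries 7 of the 9 were separated and lower (27% of all genes) and 0 separated and higher (25%), and at an unadjusted limma p under 0.05, 6 were lower (17.5%) and 0 higher (15.9%). The median log2 difference (cKO minus FF, on log2(FPKM + 1)) over the 9 genes was -0.43 with all libraries and -0.29 without FF replicate 3, beside 0.01 and -0.01 over all genes tested. Leaving out any other single library left 0 of the 9 past the threshold. It also left 0 of all genes tested, so these fits say nothing of the 9 genes.

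**Figure D1:**
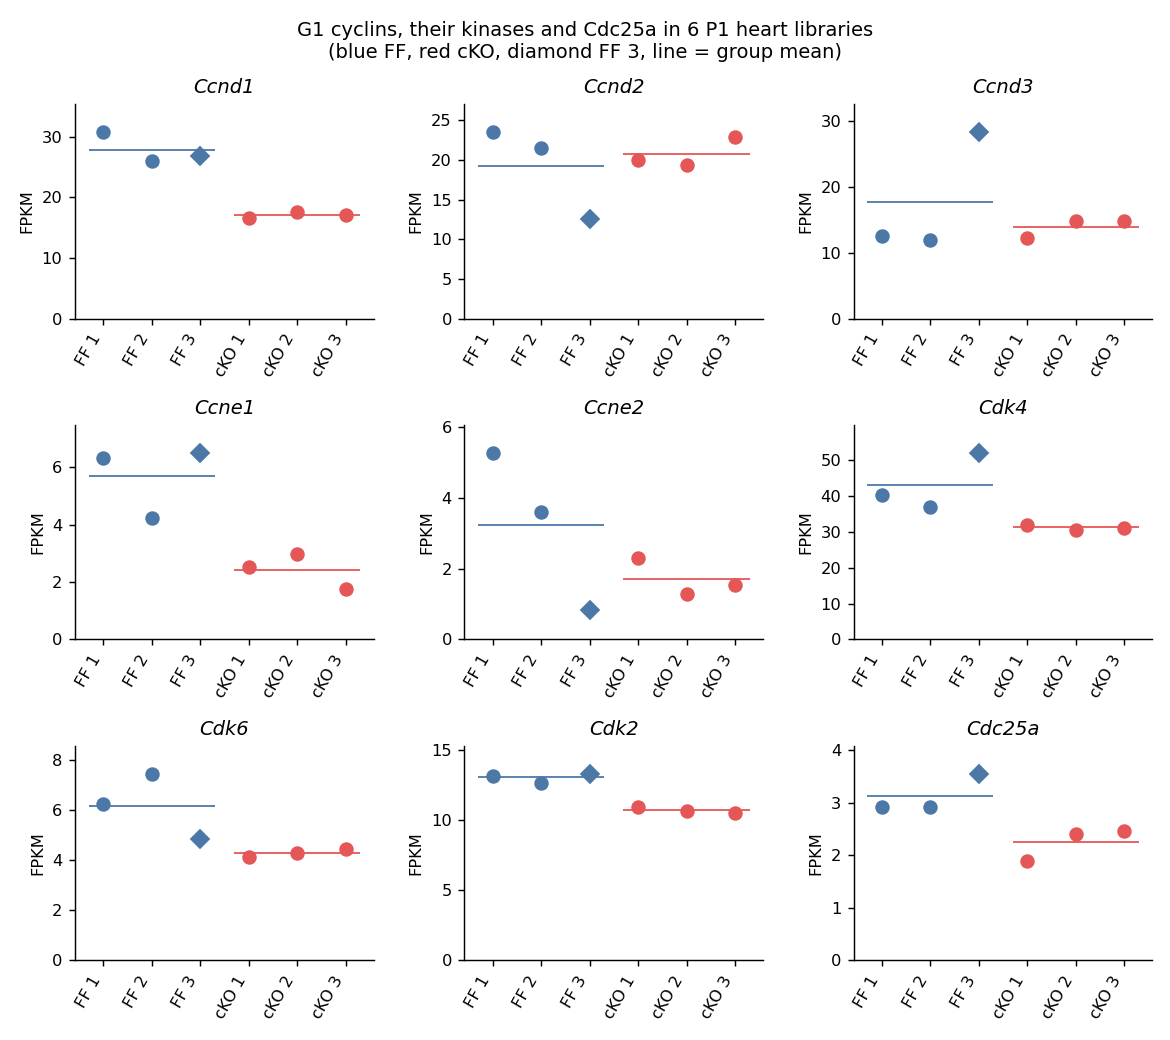
FPKM (vertical axes, from 0) of each of the 9 genes in the 6 libraries, with a line at each group mean, FF in blue, cKO in red and FF replicate 3 as a diamond. Ccnd1, Ccne1, Cdk4, Cdk6, Cdk2 and Cdc25a show no overlap between groups, and FF replicate 3 is the highest library for Ccnd3 and the lowest for Ccnd2 and Ccne2.

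Among the D-type cyclins, Ccnd1 (ENSMUSG00000070348, chromosome 7, 144483668 to 144493662, minus strand, protein coding) was at 30.8, 25.9 and 26.8 FPKM in FF hearts and at 16.7, 17.6 and 17.0 FPKM in cKO hearts. The cKO values lay close together and well below the FF values, and FF replicate 3 sat within the range of its group. The FF mean was 27.8 ± 2.61 and the cKO mean 17.1 ± 0.492 FPKM (SD, n = 3 each), 38.6% lower. The log2 difference was -0.67 (SE 0.12, 95% interval -0.95 to -0.39, limma adjusted p = 0.069). Without FF replicate 3 it was -0.69 (SE 0.10, limma adjusted p = 0.0175). Coordinates of genes are those of the deposited table, read here as GRCm39.

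Ccnd2 (ENSMUSG00000000184, chromosome 6, 127102125 to 127129156, minus strand), the D-type cyclin long studied for renewed division of heart muscle cells, was at 23.5, 21.5 and 12.5 FPKM in FF hearts. In cKO hearts it was at 19.9, 19.4 and 22.9 FPKM. The groups overlapped, and FF replicate 3 was by far the lowest library, at 0.557 times the mean of the other FF libraries. The log2 difference was 0.15 (95% interval -0.42 to 0.71, limma adjusted p = 0.786) and, without FF replicate 3, -0.12 (95% interval -0.37 to 0.13, limma adjusted p = 0.464), so even its sign depended on that library.

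Ccnd3 (ENSMUSG00000034165, chromosome 17, 47815976 to 47910616, plus strand), a D-type cyclin prominent in lymphocytes, was at 12.6, 12.0 and 28.4 FPKM in FF and at 12.3, 14.8 and 14.9 FPKM in cKO hearts. FF replicate 3 held 2.32 times the mean of the other FF libraries, and all other values lay within a narrow band. This was the library in which Trbc2, a T cell receptor constant region gene, stood at 109 FPKM against at most 1.02 elsewhere. The part of thymocyte RNA in the Ccnd3 value was not tested. Its log2 difference was -0.21 (95% interval -0.97 to 0.55, limma adjusted p = 0.772) with that library and 0.17 (95% interval -0.09 to 0.43, limma adjusted p = 0.312) without it.

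By FPKM, Ccnd1 and Ccnd2 had opposite orders of level in the groups. FPKM is per length, so levels of different genes were set side by side, though division by length does not remove differences with GC content. In each FF heart Ccnd1 was above Ccnd2, with Ccnd1 to Ccnd2 ratios of 1.31, 1.21 and 2.14. In each cKO heart the order was the other way, with ratios of 0.836, 0.911 and 0.744. This ratio was added after its values were seen. It rests on the gene lengths used, 4709 bases for Ccnd1 and 9409 for Ccnd2. In recovered reads Ccnd2 was above Ccnd1 in every library but FF replicate 3. As a share of summed D-type FPKM, Ccnd1 was 46.0%, 43.6% and 39.5% in FF and 34.1%, 34.1% and 31.1% in cKO hearts. The shares did not overlap. Their exact permutation p (two-sided) was 0.1, the lowest possible with 3 against 3, or 0.233 after Benjamini-Hochberg adjustment over 7 such measures. The Ccnd2 share was 35.2%, 36.2% and 18.5% in FF and 40.7%, 37.4% and 41.8% in cKO hearts (exact permutation p = 0.1, adjusted 0.233). Without FF replicate 3 the gap between means of the Ccnd2 share narrowed to 4.29 percentage points. The shares of the D-type cyclins add up to the whole in each library, so they are not separate results. The Ccnd3 share was highest in FF replicate 3, at 42.0%, and 18.8% and 20.2% in the other FF against 25.2% to 28.6% in cKO hearts (exact permutation p = 1 with all libraries). Summed D-type cyclins averaged 64.7 ± 4.59 in FF against 51.8 ± 2.95 FPKM in cKO libraries (SD, n = 3 each), 19.9% lower, and the FF mean was 63.2 FPKM without FF replicate 3.

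**Figure D2:**
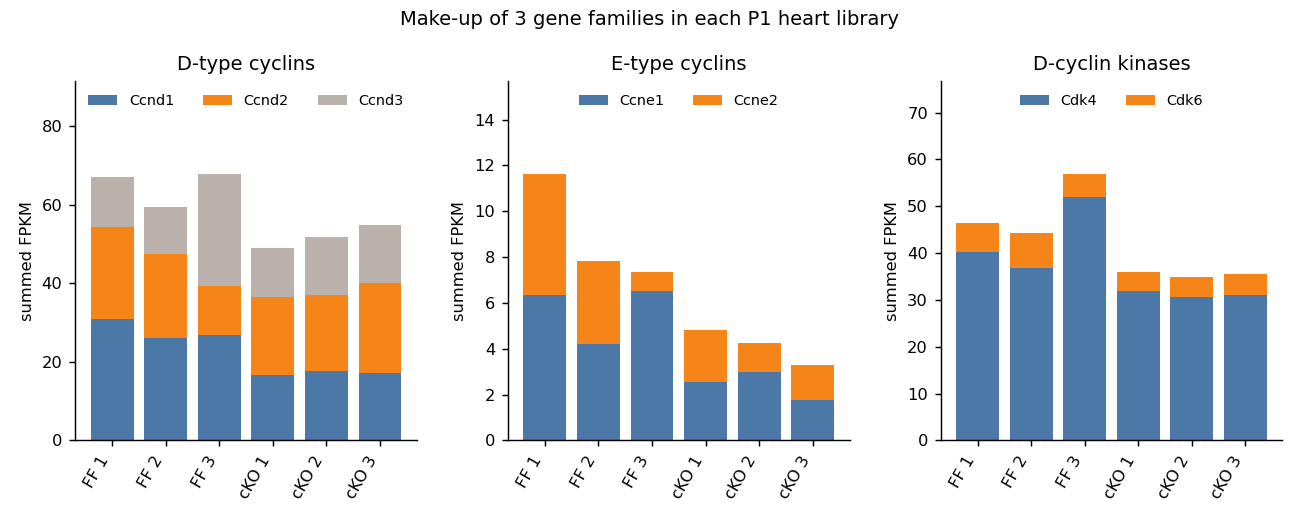
Stacked bars of summed FPKM (from 0) per library for D-type cyclins, E-type cyclins and the 2 D-cyclin kinases. Ccnd1 takes 39.5% to 46.0% of the D-type sum in FF and 31.1% to 34.1% in cKO hearts, the E-type sum is lower in each cKO library, and FF replicate 3 has the most Ccnd3 and the least Ccne2.

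By percent of the FF mean FPKM the E-type cyclins differed most of the 9 genes, Ccne1 by 57.4% and Ccne2 by 47.3%. On the log2(FPKM + 1) scale with all libraries Ccnd1 (-0.67) differed more than Ccne2 (-0.49). Ccne1 (ENSMUSG00000002068, chromosome 7, 37797409 to 37806959, minus strand) was at 6.34, 4.23 and 6.52 FPKM in FF and at 2.53, 2.98 and 1.77 FPKM in cKO hearts. The lowest FF library, replicate 2, was still above the highest cKO library, and the exact Poisson intervals of these 2 libraries, 3.63 to 4.89 and 2.54 to 3.49 FPKM, did not meet. Such 95% intervals cover counting error only. The FF mean was 5.69 ± 1.27 and the cKO mean 2.43 ± 0.616 FPKM (SD, n = 3 each), 57.4% lower. The log2 difference was -0.96 (SE 0.21, limma adjusted p = 0.0932) with all libraries and -0.87 (SE 0.21, limma adjusted p = 0.0463) without FF replicate 3.

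Ccne2 (ENSMUSG00000028212, chromosome 4, 11191351 to 11204779, plus strand) was at 5.28, 3.60 and 0.822 FPKM in FF and at 2.30, 1.27 and 1.53 FPKM in cKO hearts. FF replicate 3, with 55 reads of the gene, lay below all other libraries, while the other FF libraries lay above all cKO hearts. The 2 E-type cyclins thus went opposite ways in that library, which was the highest for Ccne1 and the lowest for Ccne2. With it the log2 difference of Ccne2 was -0.49 (95% interval -1.56 to 0.58, limma adjusted p = 0.615), and without it -1.01 (95% interval -1.51 to -0.51, limma adjusted p = 0.0341). At these low levels the log2(FPKM + 1) scale understates a change: limma voom on the recovered reads without FF replicate 3 gave -1.41 for Ccne2 and -1.14 for Ccne1.

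Summed E-type cyclins were at 11.6, 7.82 and 7.34 FPKM in FF and at 4.83, 4.26 and 3.29 FPKM in cKO hearts, 53.7% lower in the mean and with no overlap, or 57.5% lower without FF replicate 3. Relative to Cdk2, the kinase they activate, the sum was 0.881, 0.616 and 0.550 in FF and 0.443, 0.398 and 0.313 in cKO hearts. The exact permutation p of that ratio was 0.1, or 0.233 adjusted over the 7 measures, and the difference in means was -0.30 with all libraries and -0.36 without FF replicate 3. For D-type cyclins over Cdk4 and Cdk6 the ratio averaged 1.32 ± 0.125 for FF against 1.46 ± 0.0940 for cKO (SD, n = 3 each; exact permutation p = 0.2, adjusted 0.35), with overlapping groups, and the difference in means was 0.14, or 0.07 without FF replicate 3. Ccne1 made up 54.6%, 54.0% and 88.8% of the E-type sum in FF and 52.3%, 70.1% and 53.6% in cKO hearts. These shares overlapped, and the exact permutation p was 0.5 (0.7 adjusted). The difference in means was -7.13 percentage points with all libraries and 4.37 without FF replicate 3, so its sign depended on that library.

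The kinases were lower by smaller margins and with little spread among cKO hearts. Cdk4 (ENSMUSG00000006728, chromosome 10, 126899403 to 126903789, plus strand), the more abundant kinase of D-type cyclins here, was at 40.3, 36.8 and 52.0 FPKM in FF and at 31.9, 30.6 and 31.1 FPKM in cKO hearts. All cKO values lay below the FF values, and FF replicate 3 was the highest of its group. The FF mean was 43.0 ± 7.98 and the cKO mean 31.2 ± 0.670 FPKM (SD, n = 3 each), 27.5% lower, or 19.0% lower without FF replicate 3. The log2 difference was -0.44 (SE 0.15, limma adjusted p = 0.218) and, without that library, -0.29 (SE 0.08, limma adjusted p = 0.067), short of the threshold both times.

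Cdk6 (ENSMUSG00000040274, chromosome 5, 3391485 to 3581008, plus strand), the other kinase of D-type cyclins, was at 6.25, 7.45 and 4.82 FPKM in FF and at 4.11, 4.29 and 4.42 FPKM in cKO hearts. FF replicate 3 was the FF library nearest to the cKO values. The log2 difference was -0.43 (SE 0.16, limma adjusted p = 0.235) with it and -0.57 (SE 0.11, limma adjusted p = 0.0286) without it, when the mean was 37.6% lower in cKO. Cdk4 made up 87.1% ± 4.20 of the summed kinases in FF against 88.0% ± 0.559 in cKO libraries (SD, n = 3 each; exact permutation p = 0.7, adjusted 0.817), and the difference in means was 0.87 percentage points, or 3.09 without FF replicate 3.

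Cdk2 (ENSMUSG00000025358, chromosome 10, 128533808 to 128540900, minus strand) varied least between libraries of a group. It was at 13.2, 12.7 and 13.3 FPKM in FF and at 10.9, 10.7 and 10.5 FPKM in cKO hearts. FF replicate 3 did not stand out for this gene. The FF mean was 13.1 ± 0.334 and the cKO mean 10.7 ± 0.204 FPKM (SD, n = 3 each), 18.1% lower. Its log2 difference was -0.27 (SE 0.10, limma adjusted p = 0.251) and, without FF replicate 3, -0.25 (SE 0.08, limma adjusted p = 0.088), short of the threshold.

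Cdc25a (ENSMUSG00000032477, chromosome 9, 109704647 to 109722963, plus strand), the phosphatase, was at 2.92, 2.91 and 3.56 FPKM in FF and at 1.89, 2.40 and 2.46 FPKM in cKO hearts. The groups did not overlap, with FF replicate 3 the highest and cKO replicate 1 the lowest library. The FF mean was 3.13 ± 0.368 and the cKO mean 2.25 ± 0.315 FPKM (SD, n = 3 each). The log2 difference was -0.35 (SE 0.14, limma adjusted p = 0.264) and, without FF replicate 3, -0.27 (95% interval -0.57 to 0.02, limma adjusted p = 0.168). For each of the 6 genes whose groups did not overlap the exact permutation p was 0.1, the lowest 3 against 3 allows.

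**Figure D3:**
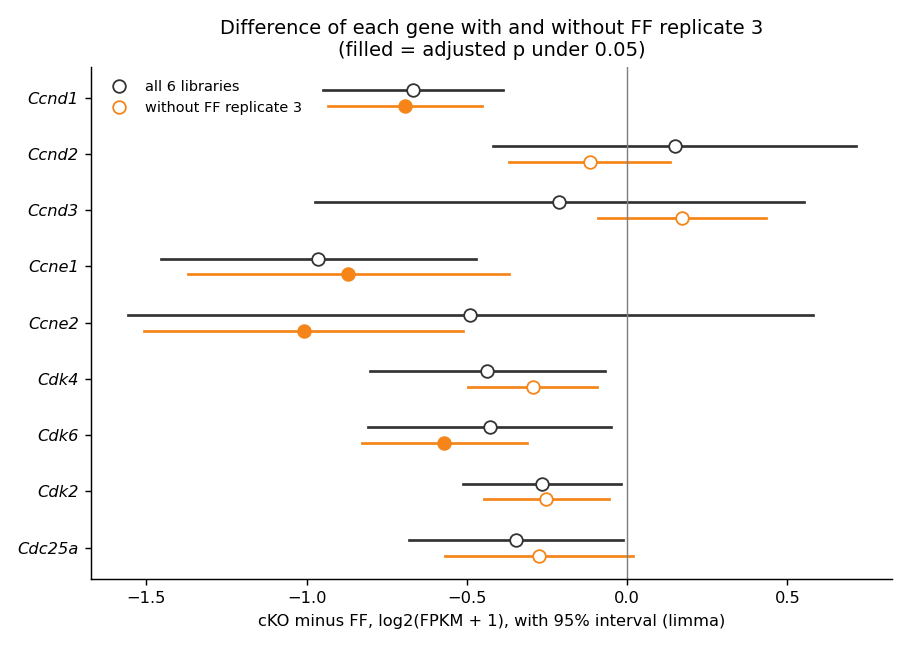
Log2 differences (cKO minus FF, horizontal axis, log2(FPKM + 1)) of the 9 genes with 95% intervals from limma, in black with all 6 libraries and in orange without FF replicate 3. Filled points passed an adjusted p of 0.05: none with all libraries, and Ccnd1, Ccne1, Ccne2 and Cdk6 without FF replicate 3.

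In FF hearts the order of mean levels was Cdk4, Ccnd1, Ccnd2, Ccnd3, Cdk2, Cdk6, Ccne1, Ccne2 and Cdc25a. The ranges of Ccnd2 and Ccnd3, Ccnd3 and Cdk2, Cdk6 and Ccne1, Ccne1 and Ccne2, and Ccne2 and Cdc25a overlapped. In cKO hearts Ccnd2 came before Ccnd1 and Cdc25a before Ccne2. There the neighbours from Cdk4 down to Ccne1 had separate ranges, and Ccne1, Cdc25a and Ccne2 overlapped. Without FF replicate 3 the FF order had Cdk2 (12.9 FPKM) above Ccnd3 (12.3 FPKM), with separate ranges, whereas in cKO hearts Ccnd3 (13.99 FPKM) lay above Cdk2 (10.7 FPKM), also with separate ranges. In those 2 FF libraries only Cdk6 and Ccne1, and Ccne1 and Ccne2, overlapped as neighbours.

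How FF replicate 3 deviated went with the GC content of the gene. Over all tested genes its deviation from the mean of the 6 libraries had a Spearman rho of 0.610 with transcript GC content. The rho was -0.48 and -0.31 in FF replicates 1 and 2 and -0.38, -0.06 and -0.05 in cKO replicates 1 to 3. Deviations from a shared mean cancel for each gene, so the positive trend in FF replicate 3 pulls the others negative. Their values are therefore not read as GC trends of their own. Among the 9 genes Ccne2 had the lowest GC content, 36.3%, and Ccnd3 the highest, 56.7%, and these had the lowest and the highest level in FF replicate 3 relative to the other FF libraries, 0.185 and 2.32 times. Over the 9 genes that relative level had a rho of 0.85 with GC content, a description over genes of the same 3 libraries. A correction for GC content, added after the data were seen, left Ccnd1 at -0.64 (limma adjusted p = 0.0355) and Ccne1 at -0.92 (limma adjusted p = 0.0440), which then passed with all 6 libraries. Of the 12473 genes tested with this correction, 266 were lower and 264 higher past the threshold. Ccne2 was at -0.63 (limma adjusted p = 0.0658) and Cdk6 at -0.49 (limma adjusted p = 0.0599) after the correction, and the median of the 9 was -0.40.

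Promoter sequence is shown for 4 genes whose cKO values were separate from FF, to give the E2F and E-box letters near the start where there are any. RefSeq promoters on GRCm38.p6 matched 6 of the 9 genes by symbol (Ccnd3 with 2 starts), and Ccnd1, Ccnd2 and Ccne2 were not among them. Each sequence is the 250 bases before the start, on the strand of the gene. Capitals mark matches, on either strand, to the E2F letters TTTCCCGC, TTTCGCGC, TTTGCCGC or TTTGGCGC, or to the E-box CACGTG, the letters bound by MYC and related factors. No matches overlapped.
Ccne1, chr7:38107491-38107740, minus strand: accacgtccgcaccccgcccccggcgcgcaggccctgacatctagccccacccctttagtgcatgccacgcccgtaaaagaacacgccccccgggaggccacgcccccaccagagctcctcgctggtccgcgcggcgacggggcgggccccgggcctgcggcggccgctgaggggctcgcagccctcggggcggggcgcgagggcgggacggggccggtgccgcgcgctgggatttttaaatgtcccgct
Cdc25a, chr9:109875329-109875578, plus strand: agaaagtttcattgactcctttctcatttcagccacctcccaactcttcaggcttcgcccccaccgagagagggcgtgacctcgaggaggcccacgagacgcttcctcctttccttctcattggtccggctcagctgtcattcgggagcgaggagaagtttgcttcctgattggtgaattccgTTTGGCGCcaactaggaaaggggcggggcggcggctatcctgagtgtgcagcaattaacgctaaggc
Cdk2, chr10:128705052-128705301, minus strand: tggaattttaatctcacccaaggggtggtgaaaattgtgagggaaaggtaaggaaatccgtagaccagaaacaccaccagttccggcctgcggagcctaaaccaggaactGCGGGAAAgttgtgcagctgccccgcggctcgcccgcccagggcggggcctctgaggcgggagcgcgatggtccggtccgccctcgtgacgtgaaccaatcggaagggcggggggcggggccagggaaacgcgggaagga
Cdk4, chr10:127063285-127063534, plus strand: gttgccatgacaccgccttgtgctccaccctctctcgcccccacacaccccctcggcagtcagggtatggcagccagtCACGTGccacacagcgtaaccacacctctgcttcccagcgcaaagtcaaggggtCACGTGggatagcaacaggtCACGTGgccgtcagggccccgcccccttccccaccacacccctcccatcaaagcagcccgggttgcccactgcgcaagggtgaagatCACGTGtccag

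Cdc25a held TTTGGCGC, starting 67 bases before the start, and Cdk2 held TTTCCCGC on the other strand (GCGGGAAA as printed), 140 bases before it. A stretch just past the start was found in GENCODE M21 transcripts of the gene for the other genes shown, but not for Cdk2. That check therefore did not bear out the start used for Cdk2. Of 32536 different RefSeq promoter windows of that length 1.87% held any of the E2F letters, and 2 of the 6 genes did. Ccne1, whose difference was larger than that of Cdc25a and Cdk2, held none of these letters in its window, which says nothing of E2F binding to it. Cdk4 held 4 E-boxes, 172, 118, 98 and 11 bases before the start. Cdk6 held 1, at 220 bases. At least 1 E-box stood in 6.04% of the windows and 4 or more in 0.0215%. The cut-off of 4 is the number in Cdk4 itself, and the motifs were chosen after the sequences were seen. These shares, that of the E2F letters included, are therefore no test of the genes.

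The genes around the G1 machinery were read from 7 lists with 102 genes, of which 96 were tested. With all 6 libraries 2 of the 96 passed the threshold in limma, both lower. When FF replicate 3 was left out, 22 of the 96 fell and 11 rose, beside 6.26% lower and 5.73% higher of all genes tested. These shares of all genes stand beside each count without that library below. Beside each count at an unadjusted p under 0.05 with all libraries stand 9.55% lower and 8.39% higher of all genes. Genes named from these lists beyond those of the fixed rule were chosen after their values were seen, because few members passed.

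Genes that E2F factors switch on for S phase were the list most often lower. Its median log2 difference was -0.80 over 20 tested genes, 19 of them lower, and 18 lower at an unadjusted p under 0.05. Mcm3 and Mcm5, subunits of the replicative helicase, passed with all libraries, at -1.48 and -1.33 (limma adjusted p = 0.0497 for both). With a pseudocount of 0.5, 0 genes of the lists were past the threshold in limma, where 6 of all genes were lower and 8 higher. With any 1 library other than FF replicate 3 left out, 0 list genes passed, and 0 of all genes did. The median of the S phase list without FF replicate 3 was -0.76, and 14 fell and 0 rose. E2f1, an activator E2F, had a mean of 9.93 ± 1.57 in FF against 4.27 ± 0.401 FPKM in cKO libraries (SD, n = 3 each), with a log2 difference of -1.05 (limma adjusted p = 0.058), and Tfdp1, a partner of E2F factors, at -0.63 (limma adjusted p = 0.139). These were the 2 of the 10 E2F and DP factors that fell without FF replicate 3 (limma adjusted p = 0.017 and 0.036). The median of that list was -0.26 with all libraries, 8 of 10 lower, and -0.17 without FF replicate 3, 6 of 10 lower.

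Inhibitors of the G1 kinases and pocket proteins had a median of 0.19 over 8 tested genes and of 0.26 without FF replicate 3, 0 of them past the threshold with all libraries in limma. At an unadjusted limma p under 0.05, 3 were higher and 1 lower. The lower one was the CDK inhibitor gene Cdkn1a, at -0.75 (limma adjusted p = 0.155). Without FF replicate 3 Cdkn1a was at -0.57 (limma adjusted p = 0.073). Once FF replicate 3 was left out, the CDK inhibitors Cdkn1b (0.56) and Cdkn2d (0.41) and the pocket protein Rbl2 (0.61) rose. The pocket protein Rbl1 then fell by 0.75 on the log2 scale. With all libraries Cdkn1b was at 0.72, Cdkn2d at 0.53, Rbl2 at 0.60 and Rbl1 at -0.50. For Rbl1, FF replicate 3 (3.34 FPKM) lay within the cKO range, 3.16 to 3.61 FPKM. Cdkn1b, which encodes p27 and acts on cyclin E with CDK2, had a mean of 14.3 ± 2.87 in FF against 23.9 ± 2.61 FPKM in cKO libraries (SD, n = 3 each; limma adjusted p = 0.115 with all libraries).

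For enzymes that activate CDKs, assemble them or add inhibitory phosphates, the median was 0.14 over 11 genes and 0.04 without FF replicate 3, with 0 past the threshold in limma with all libraries and 3 higher and 2 lower at an unadjusted p under 0.05. Without that library Cdc25b, a CDC25 phosphatase of later phases, rose by 0.68 on the log2 scale, where Cdc25a did not pass. Pkmyt1, a kinase that inhibits CDK1, and Cdk2ap1, a CDK2-associated protein, fell by 0.61 and 0.45.

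Genes for the turnover of G1 cyclins and inhibitors had a median of -0.07 over 11 genes, and of -0.19 with 8 lower without FF replicate 3, and 0 past the threshold with all libraries in limma (2 higher and 0 lower at an unadjusted p under 0.05). In the 5 libraries without FF replicate 3, Fbxw7, which targets cyclin E for degradation, fell by 0.79, and Rbx1, a shared ubiquitin ligase subunit, fell by 0.45. Fbxo31, tied to degradation of cyclin D1, and the deubiquitinase gene Usp2 rose by 0.89 and 0.64. With all libraries the log2 differences were -0.42 for Fbxw7, -0.25 for Rbx1, 0.83 for Fbxo31 and 0.46 for Usp2. FF replicate 3 was below every cKO heart for Fbxw7 (5.01 against 6.43 to 6.55 FPKM) and Rbx1 (12.56 against 12.61 to 15.4 FPKM). For Usp2 it was at 17.4 FPKM, near the cKO values of 18.1 to 19.6 FPKM.

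Other cyclins and CDKs had a median of 0.16 over 27 tested genes, and -0.03 without FF replicate 3, with 0 past the threshold in limma with all libraries and 4 higher, 0 lower at an unadjusted p under 0.05. Without that library the mitotic cyclins Ccnb1 (0.78) and Ccnb2 (0.73), Ccnf (0.68) and Ccng2 (1.08), a cyclin linked to arrest, rose, and Cdk17 fell by 0.47. With all libraries Ccng2 had a log2 difference of 1.03 (limma adjusted p = 0.056) and Ccnb1 one of 0.84 (limma adjusted p = 0.094). Cdk17 was at -0.34 with all libraries, and FF replicate 3 (9.49 FPKM) lay within its cKO range, 8.59 to 9.66 FPKM. The MYC and MAX network had a median of -0.02 over 9 tested genes, and of 0.08 without FF replicate 3, with 0 past the threshold in limma and 0 at an unadjusted p under 0.05. Among the 5 libraries without FF replicate 3, Mxi1, a MYC antagonist, rose by 0.61, and Mga stood at 0.04. With all libraries Mxi1 was at 0.41 and Mga at 0.42. For Mxi1, FF replicate 3 (9.43 FPKM) lay within the cKO range, 8.79 to 9.98 FPKM.

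**Figure D4:**
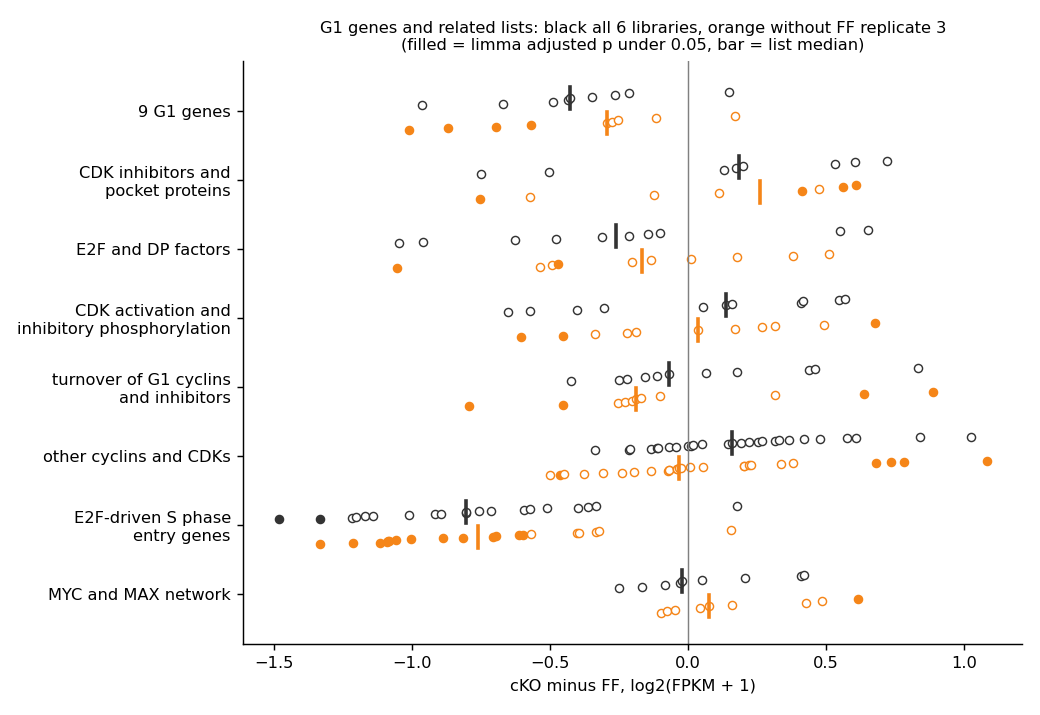
Log2 differences (cKO minus FF, horizontal axis) of the 9 G1 genes and of the tested genes of 7 related lists, in black with all 6 libraries and in orange without FF replicate 3, with a bar at each median and filled points past an adjusted p of 0.05. The median of the 9 G1 genes, -0.43, lies between that of the E2F-driven genes, -0.80, and that of the inhibitors and pocket proteins, 0.19.

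The genes whose pattern over the 6 libraries was most like that of a G1 gene were taken by Pearson correlation of log2(FPKM + 1). For Ccnd1 they were E2f1 (r = 0.997), Eva1a (0.996) and Atp5d (0.995). For Ccne1 they were Tcf19 (0.994), Mgat2 (0.994) and the myoglobin gene Mb (0.991), and Mb was at 1774 to 2169 FPKM in FF and 938 to 1288 FPKM in cKO hearts. For Cdk4 they were Manbal (0.998), Sgf29 (0.996) and Adrb1 (0.996), all highest in FF replicate 3. For Cdc25a they were Layn (0.991), Dusp8 (0.991) and Serpine2 (0.990). With 6 libraries and 12678 genes such values describe these libraries only.

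Sums of macrophage and cardiomyocyte markers did not overlap between the groups among the 5 libraries without FF replicate 3. All 5 macrophage markers were lower in the mean, and their sum was 40.1 and 49.1 FPKM in FF and 29.1 to 36.6 FPKM in cKO hearts. The 7 cardiomyocyte markers went both ways, 4 higher and 3 lower. They summed to 11748 and 10659 FPKM in FF and 12198 to 13942 FPKM in cKO hearts, with Actc1 alone at 4784 to 7931 FPKM in the 5 libraries. Of the list Nppa rose (2.17, limma adjusted p = 0.047), Actc1 (0.47) and Myh6 (0.13) were higher, and Myl3 (-0.53) and Pln (-0.56) lower, short of the threshold. The part of either in the values of the G1 genes was not tested. Fibroblast (317 to 433 FPKM), endothelial (186 to 232) and epicardial (12.5 to 17.2) sums overlapped between the groups in those 5 libraries, as did erythroid sums (668 to 946 FPKM). Single markers in these lists passed in limma in opposite directions: the fibroblast gene Dcn (-0.66) and the epicardial gene Wt1 (-0.57) fell, and the fibroblast gene Tcf21 (0.60) and the erythroid gene Alas2 (0.64) rose. Their part was not tested. Whether reads were counted by strand was not stated, and 8 of the 9 genes overlap another gene, Ccne1 being the exception. Ints8 overlaps Ccne2 by 5622 bases of gene span and averaged 3.08 ± 1.08 in FF against 3.19 ± 0.444 FPKM in cKO libraries (SD, n = 3 each), with a log2 difference of -0.17 without FF replicate 3. Tspan31 overlaps Cdk4 by 641 bases and averaged 17.0 ± 5.45 against 14.6 ± 0.615 FPKM (SD, n = 3 each), with a log2 difference of 0.06 without that library. Reads of such overlapping stretches cannot be told apart if strand was not used.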

How the data were processed

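Whole-heart RNA of 6 mouse libraries was purified by a miRNeasy micro kit, and libraries came from the Ovation Ultralow V2 kit (labels' protocols). What the authors deposited are FPKM values per gene, per the file headers. Tools listed in the submitters' processing notes are TopHat2 2.0.13, featureCounts, Subread, edgeR and FastQC, without their order. Builds listed there are GRCm39, mm10 and GRCh38, and what each was for is not said. Of 52073 gene identifiers shared with GENCODE M21 (mm10), 1472 had the same start and end, which of the mouse builds named leaves GRCm39. No source used here gives the annotation release, the strand setting or the scaling behind the FPKM values.

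FPKM times gene length was a whole multiple of 1 step per library (100% of values under 200 reads lay within 0.1 of a whole number), which gave back the reads. A linear model of log2(FPKM + 1) on group alone was fitted by limma 3.58.1 (R 4.3.3), with its trend option, for the 12678 genes whose mean was 1 FPKM or more. P-values were adjusted over these genes by the Benjamini-Hochberg method, with a threshold of 0.05. Steps were tested on simulated data. For the limma fit these had the same low dispersion for all genes and no library set apart like FF replicate 3. That test therefore does not show how the fit behaves on these libraries. GC content came from the longest GENCODE M21 transcript, known for 98.4% of tested genes.

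The 9 genes, the lists and the alternatives were chosen with earlier results of these data known. Named were the 9 genes, Kdm5b, up to 3 called members per pathway list or else the 2 with the smallest p, and the 3 genes most correlated with the highest D-type cyclin, E-type cyclin and kinase and with Cdc25a, leaving out predicted genes and pseudogenes. Of the 2 highest markers per cell type list only Trbc2 and Cd1d1 are named, and other markers are given as sums. The exceptions are Rag2 and the single markers given last, which were named after their values were seen. Motifs were chosen after the sequences were seen.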

Additional observations from a re-analysis of the deposited data

How the results depend on the processing

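Over 22 alternatives to the test with all 6 libraries, Ccnd1, Ccne1, Ccne2, Cdk4, Cdk6, Cdk2 and Cdc25a were lower in cKO hearts wherever they were tested (a mean FPKM of at least 5 left out Ccne1, Ccne2 and Cdc25a). Ccnd2 ran from -0.12 to 0.31 and Ccnd3 from -0.42 to 0.21. The cause of the changes below was not tested.

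None of the 9 genes was higher past the threshold in any alternative. As many as 6 were lower with library weights, where 2157 of all 12678 genes were lower. These weights were 0.828, 5.69 and 0.0860 for FF replicates 1 to 3, so the FF level in that fit rested mostly on replicate 2. With GC correction 2 of the 9 were lower, where 266 of the 12473 genes tested in it were. The other alternatives that kept all libraries gave 0 of the 9, where 0 to 30 of all genes were lower. Leaving out single libraries gave 0 to 4, where 0 to 794 of all genes were lower. Without FF replicate 3 the count was 4 with voom on recovered reads, median-ratio scaling, quantile normalization or rescaling outside mitochondrial and haemoglobin genes. It was 5 with GC correction, Cdk4 being added (limma adjusted p = 0.046, against 0.032 to 0.526 over alternatives that kept that library). In these fits without FF replicate 3, 730 to 1280 of all genes were lower.

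All genes past the threshold, 12 lower and 9 higher, became 5 and 6 with a pseudocount of 0.1, 6 and 8 with 0.5, 0 and 0 with no filter, 30 and 23 with a mean of at least 5, 6 and 9 with median-ratio scaling, 28 and 31 with quantile normalization, 19 and 15 with rescaling, 2157 and 2143 with library weights, 5 and 6 with voom, and 266 and 264 with GC correction. Leaving out single libraries gave 0 to 794 lower and 0 to 726 higher. Without FF replicate 3 the counts were 1280 and 1153 with voom, 1063 and 1032 with GC correction, 797 and 804 with median-ratio scaling, 730 and 845 with quantile normalization, and 914 and 776 with rescaling.

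Genes of the 7 related lists, 2 lower and 0 higher, became 0 lower with either pseudocount, no filter, median-ratio scaling or voom, 5 and 1 with a mean of at least 5, 4 and 1 with quantile normalization or rescaling, 32 and 21 with library weights and 18 and 5 with GC correction. Leaving out single libraries gave 0 to 22 lower and 0 to 11 higher. Without FF replicate 3 they were 30 and 15 with voom, 26 and 13 with GC correction, 22 and 12 with median-ratio scaling, 21 and 13 with quantile normalization and 24 and 12 with rescaling.

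The labels number libraries 1 to 3 in each group. Deviations of libraries with the same number correlated at 0.384, -0.238 and 0.239, so the numbers are not read as pairs. With a replicate block 0 of the 9 genes, 0 of the list genes, and 1 lower and 1 higher of all genes passed, and not every library correlated best with its own number.

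Shares and ratios of the families moved by less than the larger of the SDs of the groups under each setting but 1. The larger SD, in FF for each measure, includes FF replicate 3, without which the difference in Ccne1 share went from -7.13 to 4.37 points and that in Ccnd3 share from -0.01 to 7.49. Counted in recovered reads, the difference in D-type cyclins over Cdk4 and Cdk6 was 0.41, where it was 0.14 by FPKM. These 2 values are on unlike scales, as reads are not divided by gene length. In reads every cKO ratio lay above every FF ratio, whereas by FPKM the groups overlapped. Depth limited Ccne2 most, with 55 reads in FF replicate 3 and an exact Poisson interval of 0.619 to 1.07 FPKM.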
